A study of Mus musculus with 30 samples.

Results

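Colon 26 and CT-26 are carcinoma lines from the colon of BALB/c mice, and the RNA of their small tumors was compared across all genes. The comparison used every library labelled with the 100 mm3 size class, 4 Colon 26 and 4 CT-26 tumors, of 30 libraries in the series. Cells of each line had been implanted in the flank of BALB/c females, and tumors with measured volumes of 102.9 to 124.88 mm3 (Colon 26) and 103.33 to 145.86 mm3 (CT-26) were sequenced as poly-A RNA. The animals' age was not given in the sources used here. No library label names an antibody, so the tumors were taken as untreated, although antibody dosing is described in the labels' protocol. The other libraries used were 4 tumors of each model at 400 mm3 and at 800 mm3 and 3 cultures of each line. Each model is a single established cell line, and a whole tumor holds the host's leukocytes, vessels and stroma beside the line's cells. In such bulk RNA, fewer cells of a type and less RNA per cell cannot be told apart. The study describes CT-26 as the more sensitive of the models to an antibody against PD-1, and the question addressed was how the transcriptomes of the small tumors differ.

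Type I interferons signal through Ifnar1 and Ifnar2, and interferon-gamma, made mostly by T and NK cells, signals through Ifngr1 and Ifngr2. Both receptors act through JAK kinases and STAT transcription factors, which bind short elements in promoters of antiviral genes, of GTPases that attack intracellular pathogens, and of genes for antigen presentation. Tumors transplanted under the skin also recruit fibroblasts, which lay down collagen, and macrophages, mast cells and lymphocytes.

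Estimated counts on genes summed to 24844075 to 30584234 per CT-26 library and 23597116 to 35677338 per Colon 26 library. Mitochondrial genes took 1.18 to 1.44% of the counts in CT-26 and 1.33 to 1.44% in Colon 26. Every pair of libraries within a group differed beyond counting noise, so each was kept as 1 replicate. The labels give each tumor a volume of its own but name no animals, so p-values measure the spread between these tumors. The leukocyte gene Ptprc, which encodes CD45, was at 72.4, 189, 85.1 and 71.8 CPM in CT-26 and 61.5, 121, 108 and 84.3 CPM in Colon 26, and its groups overlapped (log2 fold change -0.16 ± 0.34, adjusted p = 0.73). Of 24 listed genes of colon and epithelial identity, 15 had too few counts to be tested, among them Epcam (mean 0.132 and 0.0777 CPM in CT-26 and Colon 26), Krt8, Vil1, Muc2 and Cldn3. CPM are counts scaled by the library total and its TMM factor so that libraries can be compared, and they are not corrected for gene length.

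Of 15406 genes tested, 950 were higher and 1088 lower in Colon 26, where a call needed a change of 1 or more on the log2 scale and an adjusted p no larger than 0.1. These shares were 6.17% and 7.06% of the genes tested, 13.2% together, and they are the background for every list described here. The groups of 4 did not overlap in 47.9% of the genes tested, and 55.5% had an unadjusted p under 0.05 in either direction. The median log2 fold change of all genes was -0.0022. Among the called genes, 290 of the higher and 397 of the lower genes differed by more than 4-fold, and 78 and 96 by more than 16-fold. All log2 fold changes given here are Colon 26 over CT-26. The ± value is an approximate SE, the absolute change divided by the square root of the test's F statistic.

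**Figure D1:**
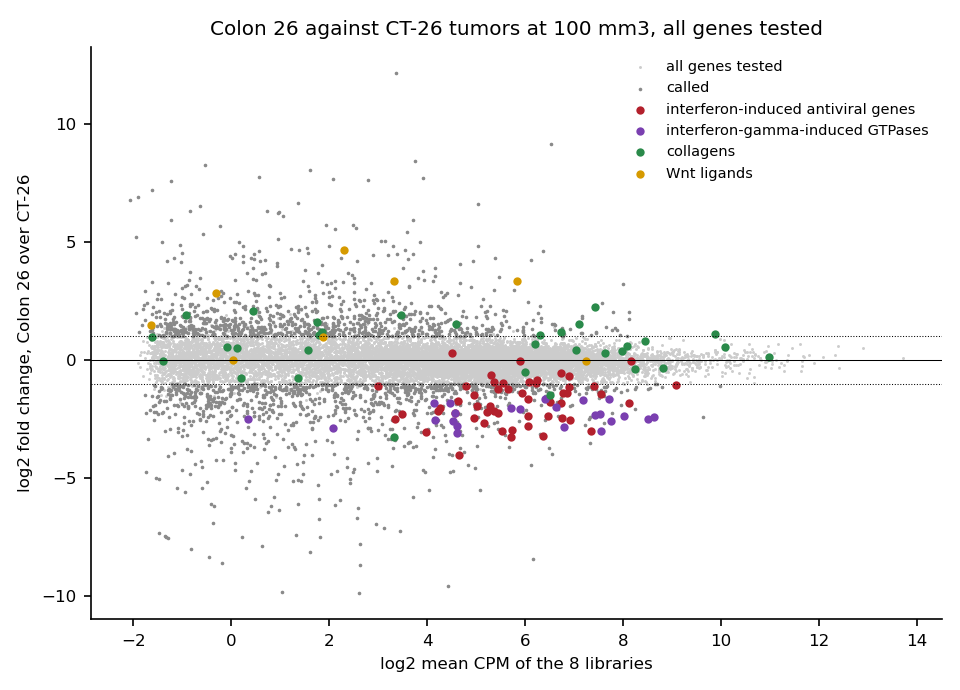
Each point is 1 of 15406 genes, with the log2 mean CPM of the 8 libraries on the x axis and the log2 fold change of Colon 26 over CT-26 on the y axis. Dotted lines mark the minimum change of 1 in either direction. The antiviral genes and GTPases lie almost entirely below 0, whereas 5 of 8 Wnt ligands and 12 of 32 collagens were called above it.

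The genes with the largest differences were close to absent from 1 of the models. B530045E10Rik, a lincRNA of chromosome 10 (GRCm38, 99298888 to 99423047, plus strand), was at 0, 0, 0 and 0 CPM in CT-26 and 19.2, 25.7, 21.4 and 15.7 CPM in Colon 26. With 0 counts in every CT-26 library it was at least 755-fold higher in Colon 26, taking 3 counts over the CT-26 group as the limit (adjusted p = 8.1e-06). Dnah1, which encodes an axonemal dynein heavy chain (chromosome 14, 31260375 to 31323896, minus strand), was at 0.339, 0.365, 0.236 and 0.313 CPM in CT-26 and 204, 178, 182 and 179 CPM in Colon 26. Its groups lay far apart (log2 fold change 9.18 ± 0.11, adjusted p = 6.2e-10). Fras1, a basement membrane protein gene, was at 0.0847, 0.0995, 0 and 0.104 CPM in CT-26 and 29.4, 25.7, 24.3 and 28.6 CPM in Colon 26 (log2 fold change 8.43 ± 0.28, adjusted p = 3.5e-07). The sodium-proton exchanger gene Slc9a2 (7.71 ± 0.29), the receptor gene Glp1r (7.66 ± 0.23), the adaptor gene Grb14 (7.65 ± 0.33) and Bmp4 (5.96 ± 0.36) followed, together with the genes Lingo1, P2rx5, Gm38226, Gm44220 and 4930452B06Rik at log2 fold changes of 5.55 to 6.61.

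At the other end stood Syt1, the synaptic vesicle calcium sensor (chromosome 10, 108497650 to 109010982, minus strand), at 8.38, 14, 13.2 and 13.2 CPM in CT-26 and 0, 0.0276, 0 and 0 CPM in Colon 26. Only 1 Colon 26 library held any count of it (adjusted p = 8.3e-07, 1454-fold lower with a 95% counting interval of 260.4 to 57456). Slc1a2, a glial glutamate transporter gene (chromosome 2, 102658659 to 102790784, plus strand), was at 49.8, 52.4, 37.7 and 31.4 CPM in CT-26 and 0.0324, 0.111, 0.0376 and 0 CPM in Colon 26 (log2 fold change -9.6 ± 0.37, adjusted p = 6.1e-07). The homeobox gene Rhox5 (chromosome X, 37804842 to 37808876, plus strand) was at 173, 126, 137 and 133 CPM in CT-26 and 0.584, 0.553, 0.188 and 0.207 CPM in Colon 26 (log2 fold change -8.45 ± 0.26, adjusted p = 1.7e-07). These 3 genes were on in all CT-26 tumors and nearly off in all Colon 26 tumors. Rgs17 (-7.8), Ndst3 (-7.25), Ppef1 (-7.14), Ndst4 (-6.95), the growth cone gene Gap43 (-6.68), the angiotensinogen gene Agt (-6.26), 9430018G01Rik (-6.14) and Tcp11x2 (-5.95) were also lower in Colon 26, and the simple keratin gene Krt18 is described with the epithelial genes. All 24 genes with the largest changes differed in the same direction between the cultured lines and at 400 and 800 mm3. Exons of Slc1a2, Fras1, Dnah1 and Bmp4, and of Irf7, Cxcl10, Col10a1, Timp3, Tgfa and Il7 described later, overlap those of a gene on the opposite strand, and since the handling of strand was not given their reads could be shared.

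Interferon-induced antiviral genes formed a large block on the CT-26 side. Of 52 listed genes, all of which were tested, 41 were lower and 0 higher in Colon 26, against 7.06% lower among all genes. Their median log2 fold change was -1.8, and 51 of the 52 lay below 0 (50.2% of all genes). The groups did not overlap for 46 of the 52 (47.9% of all genes). No gene of the list had an unadjusted p under 0.05 on the higher side, and DESeq2 called 41 lower and 0 higher. Some of these genes carry the interferon-stimulated response element (TTTCNNTTTC on either strand) just before the start of transcription. Among the RefSeq promoters of GRCm38.p6, defined as 250 bases before to 50 bases after the start, 1079 of 27025 genes (3.99%) held the motif. It was found for 19 of the 38 antiviral genes with an entry (50%), in 15 of 29 called lower and 4 of 9 not called. The letters are a description of these windows and do not show that a factor bound there. The last 170 bases before the start are printed for 4 antiviral genes and 2 GTPases. They run 5′ to 3′ on the gene's strand and show where the element lies. The genes were picked by hand from those called lower whose single promoter entry held the motif. That each holds it was therefore fixed by the choice. Oasl2 (log2 fold change -3.01) and Ifi44 (-2.55), also called lower, held no match in their windows. Capitals mark the motif or its reverse complement, and overlapping matches run together.
Oas1a: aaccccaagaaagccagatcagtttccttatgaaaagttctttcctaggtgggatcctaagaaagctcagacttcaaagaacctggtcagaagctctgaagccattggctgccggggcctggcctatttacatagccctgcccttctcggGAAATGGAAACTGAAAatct
Ifit1: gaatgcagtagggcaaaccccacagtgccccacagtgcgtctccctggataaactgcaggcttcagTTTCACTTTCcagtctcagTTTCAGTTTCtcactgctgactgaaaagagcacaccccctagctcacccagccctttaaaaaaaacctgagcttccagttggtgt
Ifit3: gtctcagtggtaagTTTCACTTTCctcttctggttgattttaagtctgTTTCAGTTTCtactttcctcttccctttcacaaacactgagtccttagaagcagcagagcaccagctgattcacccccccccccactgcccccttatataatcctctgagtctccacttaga
Isg15: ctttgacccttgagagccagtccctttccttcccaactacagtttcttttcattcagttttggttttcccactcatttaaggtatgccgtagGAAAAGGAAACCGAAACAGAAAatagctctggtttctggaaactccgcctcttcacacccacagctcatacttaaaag
Gbp2: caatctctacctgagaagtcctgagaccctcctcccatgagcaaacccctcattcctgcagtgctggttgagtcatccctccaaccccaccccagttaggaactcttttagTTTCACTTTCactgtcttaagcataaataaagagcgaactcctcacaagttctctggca
Igtp: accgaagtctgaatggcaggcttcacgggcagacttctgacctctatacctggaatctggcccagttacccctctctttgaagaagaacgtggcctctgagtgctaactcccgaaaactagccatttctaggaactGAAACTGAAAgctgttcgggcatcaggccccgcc
The windows are chr5:120907526-120907695 (minus strand) for Oas1a, chr19:34640719-34640888 (plus) for Ifit1, chr19:34583359-34583528 (plus) for Ifit3, chr4:156200819-156200988 (minus) for Isg15, chr3:142620493-142620662 (plus) for Gbp2 and chr11:58199386-58199555 (plus) for Igtp. The last match ends 4 bases before the start in Oas1a, 24 in Igtp, 49 in Gbp2, 56 in Isg15, 75 in Ifit1 and 112 in Ifit3. Isg15 holds 3 matches, Oas1a, Ifit1 and Ifit3 hold 2 each, and both GTPases hold 1.

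The 4 antiviral genes whose promoters are printed were picked from genes called lower. Oas1a, which makes the 2′-5′ oligoadenylates that switch on RNase L, was at 108, 137, 62.6 and 74.9 CPM in CT-26 and 6.88, 14.2, 10.3 and 8.33 CPM in Colon 26. The lowest CT-26 library was well above the highest Colon 26 library (log2 fold change -3.26 ± 0.31, adjusted p = 4.4e-05). Ifit1, whose protein binds foreign RNA caps, was at 59.7, 99.4, 41.2 and 46 CPM in CT-26 and 7.52, 10.8, 11.9 and 8.87 CPM in Colon 26 (log2 fold change -2.65 ± 0.29, adjusted p = 1.1e-04). Ifit3, its partner, was at 91.9, 157, 64.3 and 64.5 CPM in CT-26 and 7.56, 15.1, 17 and 8.25 CPM in Colon 26 (log2 fold change -2.98 ± 0.38, adjusted p = 2.4e-04). Again no Colon 26 tumor reached any CT-26 tumor. Isg15, a ubiquitin-like modifier, was at 124, 169, 74 and 81.3 CPM in CT-26 and 13.9, 28.5, 26.9 and 16.1 CPM in Colon 26 (log2 fold change -2.39 ± 0.33, adjusted p = 3.8e-04). Its groups did not overlap, and CT-26 replicate 2 was the highest library for each of these 4 genes. Usp18, which removes Isg15 from proteins and limits interferon signaling, was at 85.6, 131, 51.5 and 62.7 CPM in CT-26 and 5.64, 15.2, 13.1 and 6.38 CPM in Colon 26 (log2 fold change -3.03 ± 0.41, adjusted p = 3.2e-04). Bst2, the tetherin gene, was at 539, 579.6, 304 and 323 CPM in CT-26 and 81.9, 166, 149 and 90.8 CPM in Colon 26 (log2 fold change -1.84 ± 0.30, adjusted p = 9.6e-04), and Rsad2, the viperin gene, at 36.2, 54.5, 22.8 and 39.5 CPM in CT-26 and 8.2, 13, 13.5 and 11.7 CPM in Colon 26 (log2 fold change -1.72 ± 0.26, adjusted p = 6.2e-04).

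The largest difference of the list was that of Oas1g, at 51.3, 64.7, 33.6 and 39.1 CPM in CT-26 and 1.1, 4.31, 4.4 and 1.53 CPM in Colon 26 (log2 fold change -4.04 ± 0.44, adjusted p = 1.0e-04). Other oligoadenylate synthetase genes were lower as well, with log2 fold changes of -3.22 ± 0.30 for Oas2, -2.79 ± 0.48 for Oas3, -3.01 ± 0.41 for Oasl2, -2.16 ± 0.17 for Oasl1 and -2.52 ± 0.34 for Oas1b. The dynamin-like genes Mx1 (-2.03 ± 0.31) and Mx2 (-2.3 ± 0.31), Ifit3b (-3.07 ± 0.34), Cmpk2 (-2.45 ± 0.34) and Ifi44 (-2.55 ± 0.47) fell in the same range. Ifi27l2a varied little among the tumors of a model, at 166, 175, 108 and 144 CPM in CT-26 and 30.3, 30.1, 30.6 and 22.6 CPM in Colon 26 (log2 fold change -2.38 ± 0.16, adjusted p = 8.7e-06). Of the 11 genes without a call, 8 (Slfn8, Parp9, Ifi35, Dtx3l, Eif2ak2, Trim25, Slfn5 and Adar) passed the adjusted p with changes of -0.96 to -0.56. The remaining 3 were Ifitm2 (-0.06 ± 0.07, adjusted p = 0.5), Ifi27 (-0.05 ± 0.10, adjusted p = 0.72) and Isg20 (0.32 ± 0.16, adjusted p = 0.14), the last being the only member above 0. The Oas1 genes and Ifit3 with Ifit3b are close copies, and how the authors' counting split reads between copies was not given.

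The summed CPM of the antiviral list was 6290.4, 8912, 4598 and 4758 in CT-26 and 1763, 2731, 2714 and 1906 in Colon 26. CT-26 replicates 1 and 2, which had the highest sums, also had the highest sums of the T and NK cell list described later (323 and 601 CPM, against 119.6 to 126 CPM in the other CT-26 tumors and 36.9 to 151 CPM in Colon 26), and they were the smaller CT-26 tumors by measured volume. The part of lymphocyte content and tumor volume in the difference was not tested beyond the following values. With log2 tumor volume as a covariate 41 antiviral genes were lower, and without CT-26 replicate 2 the number was 33.

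**Figure D2:**
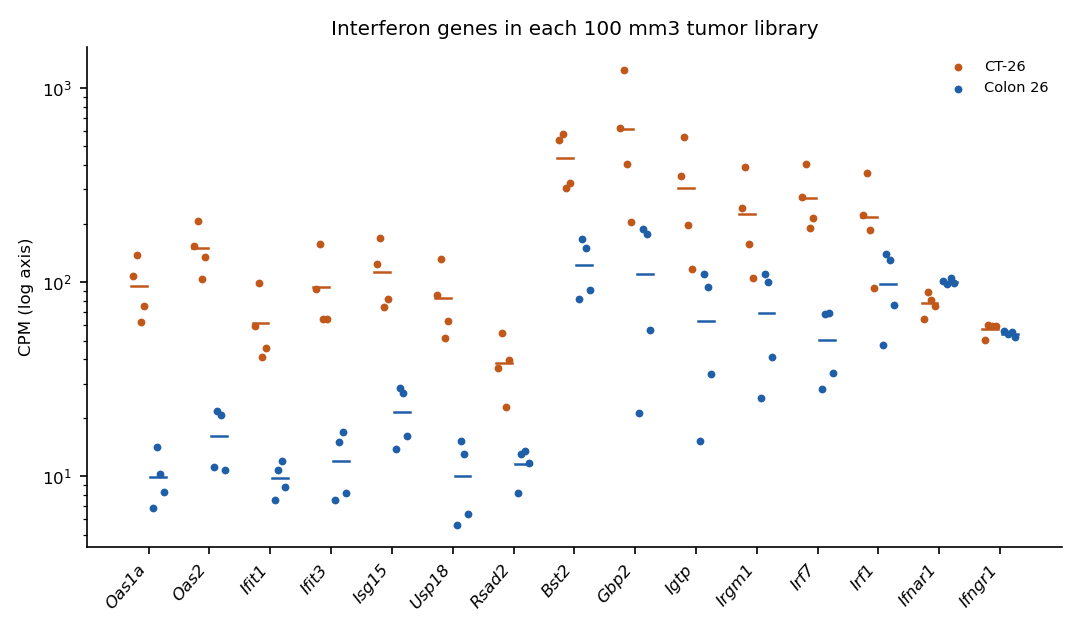
CPM on a log axis for 15 interferon genes in each 100 mm3 library, with 4 CT-26 points and 4 Colon 26 points per gene and a bar at each group's mean. For the antiviral genes Oas1a to Bst2 every Colon 26 point lies under every CT-26 point, the GTPases spread more widely within each model, and the receptor genes Ifnar1 and Ifngr1 differ little.

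The GTPases induced by interferon-gamma, the guanylate-binding proteins and the immunity-related GTPases that coat and break pathogen vacuoles, were lower too, with a wide spread among tumors. Of 23 listed and tested, 21 were lower and 0 higher (DESeq2 called 20 lower and 0 higher, and no member had an unadjusted p under 0.05 on the higher side). All 23 lay below 0 with a median of -2.37. The groups did not overlap for 14 of the 23, while they did not overlap for 47.9% of all genes. Gbp2 was at 621, 1238, 404 and 203 CPM in CT-26 and 21.2, 187, 177 and 56.5 CPM in Colon 26 (log2 fold change -2.48 ± 0.75, adjusted p = 0.022). Its values spread widely within each model, yet the lowest CT-26 library was above the highest Colon 26 library. Igtp was at 351, 557, 198 and 117 CPM in CT-26 and 15.2, 110.3, 94.5 and 33.6 CPM in Colon 26 (log2 fold change -2.27 ± 0.67, adjusted p = 0.021), and its lowest CT-26 library was only just above its highest Colon 26 library. Irgm1, whose protein guards the cell's own membranes, was at 242, 389, 157 and 105 CPM in CT-26 and 25.3, 109.6, 100.1 and 41.2 CPM in Colon 26, and its groups overlapped (log2 fold change -1.69 ± 0.53, adjusted p = 0.027). Gm12185 (-3.08 ± 0.76), Gbp3 (-3.0 ± 0.72), Gbp11 (-2.87 ± 0.84), Tgtp1 (-2.83 ± 0.94) and Gbp10 (-2.78 ± 0.86) had the largest changes. The 2 members without a call were Iigp1 (-1.64 ± 0.77, adjusted p = 0.11) and Gm4841 (-1.8 ± 0.86, adjusted p = 0.11). The element TTTCNNTTTC was present for 12 of the 13 GTPase genes with a promoter entry (92.3%), all of them called lower. The interferon-gamma activated site (TTCNNNGAA) was present for 8 of 13 (61.5%), against 9.55% of all genes in the table. Among antiviral genes that site was found for 8 of 38 (21.1%), in 4 of 29 called lower and 4 of 9 not called. Several of these genes lie in clusters with overlapping exons (Gbp4, Gbp8 and Gbp9, or Igtp and Irgm2), so their reads may be shared.

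The summed CPM of the GTPase list was 4505, 8869.6, 2990.5 and 1604 in CT-26 and 197, 1587, 1421 and 470.5 in Colon 26. The sums of the 2 models did not overlap by a small margin, 1604 in CT-26 replicate 4 against 1587 in Colon 26 replicate 2. Without CT-26 replicate 2, 18 members were called lower.

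Upstream of these genes, in the interferon signaling chain, a smaller share of members was lower than in the antiviral and GTPase lists. Of 23 tested genes for interferon receptors, kinases and transcription factors, 5 were lower and 0 higher, with a median of -0.10. The lower share was 21.7%, against 7.06% of all genes. DESeq2 also gave 5 and 0, and 4 members had an unadjusted p under 0.05 on the higher side. The called genes named here are factors that are themselves induced by interferon. Irf7, the amplifier of type I interferon production, was at 274, 406, 189 and 214 CPM in CT-26 and 28, 68.8, 69.2 and 34.1 CPM in Colon 26 (log2 fold change -2.44 ± 0.36, adjusted p = 5.7e-04). Its groups did not overlap. Stat2 (-1.79 ± 0.38), the class I transactivator gene Nlrc5 (-1.35 ± 0.43) and Irf1 (-1.13 ± 0.44) were also called. The receptor genes were near 0, with Ifngr1 at -0.08 ± 0.07, adjusted p = 0.36 and Ifngr2 at -0.03 ± 0.06, adjusted p = 0.73. Ifnar1 (0.37 ± 0.09, adjusted p = 0.0085), Tyk2 (0.46 ± 0.09, adjusted p = 0.0027) and Jak1 (0.34 ± 0.09, adjusted p = 0.0098) passed the adjusted p on the higher side, with changes under the minimum size. Jak2 (-0.61 ± 0.10, adjusted p = 9.0e-04) and Irf9 (-0.96 ± 0.25, adjusted p = 0.012) passed it on the lower side. Without CT-26 replicate 2, 3 of the 5 calls were made. Nlrc5 (-0.99) lost its call without CT-26 replicate 2 (here and later, the log2 fold change or its range without those libraries, each left out alone, is in parentheses). Irf1 (-0.76 to -1.11) lost its call without CT-26 replicate 1 or 2 or Colon 26 replicate 1 or 4.

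Sensors of foreign nucleic acid were partly lower. Of 20 tested, 6 were lower and 0 higher by edgeR and by DESeq2 (median -0.47, 1 member higher at an unadjusted p under 0.05). All 6 are known interferon-induced genes. They were Zbp1 (-2.44 ± 0.59), the RIG-I gene Ddx58 (-1.39 ± 0.24), Ddx60 (-1.39 ± 0.38), the MDA5 gene Ifih1 (-1.21 ± 0.31), Tlr3 (-1.2 ± 0.25) and Dhx58 (-1.11 ± 0.36). The adaptors Mavs (-0.32 ± 0.07, adjusted p = 0.0049), Myd88 (0.12 ± 0.08, adjusted p = 0.21) and Tbk1 (-0.25 ± 0.10, adjusted p = 0.068) and the cytosolic DNA sensor gene Cgas (-0.56 ± 0.11, adjusted p = 0.0033) were not called. At least Ddx58 and Ifih1 were also members of the antiviral list, so the sensor count is not separate from the antiviral count. The number of lower sensors fell to 2 without CT-26 replicate 2. Ddx60 (-0.94), Ifih1 (-0.83) and Tlr3 (-0.90) lost their calls without CT-26 replicate 2. Dhx58 (-0.79 to -0.98) lost its call without CT-26 replicate 2 or Colon 26 replicate 1 or 4.

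Genes of antigen presentation by MHC class I lay mostly below 0. Of 24 tested, 6 were lower and 0 higher, 23 lay below 0, and the median was -0.75. DESeq2 gave the same counts, and no member was higher at an unadjusted p under 0.05. Without CT-26 replicate 4 or Colon 26 replicate 2, 10 were lower. The number lower was 4 without CT-26 replicate 2. The groups did not overlap for 6 of the 24, while they did not overlap for 47.9% of all genes. The non-classical genes H2-T24 (-2.07 ± 0.45), H2-T22 (-1.34 ± 0.39) and H2-T10 (-1.27 ± 0.35), the immunoproteasome subunits Psmb9 (-1.73 ± 0.56) and Psmb10 (-1.01 ± 0.31) and Nlrc5 were called. B2m, the light chain of class I molecules, was at 2375, 3076, 1755 and 1468 CPM in CT-26 and 614, 1526, 1345 and 883 CPM in Colon 26, and its groups overlapped (log2 fold change -0.99 ± 0.32, adjusted p = 0.028). H2-D1 (-0.77 ± 0.31, adjusted p = 0.068), H2-K1 (-0.69 ± 0.31, adjusted p = 0.099) and the peptide transporter gene Tap1 (-0.93 ± 0.47, adjusted p = 0.13) were below 0 without a call. The H2 genes are near-identical copies, and a BALB/c tumor need not match the reference alleles, so values of single members are uncertain. None of 11 tested genes of MHC class II presentation was called by edgeR or DESeq2 and none had an unadjusted p under 0.05 (median 0.33). The summed CPM of the class II list was 938, 2777, 1281 and 779 in CT-26 and 629, 2610.4, 2452 and 1267 in Colon 26, with CT-26 replicate 2 and Colon 26 replicates 2 and 3 at the top. Psmb10 (-0.77 to -0.92) lost its call without CT-26 replicate 1 or 2 or Colon 26 replicate 1 or 4.

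The same contrast in larger tumors and in culture was set beside these values. At 400 mm3, 40 of the 52 antiviral genes were lower and 0 higher, with a median of -1.68. At 800 mm3, 26 were lower and 0 higher, with a median of -1.04, while 7.79% and 7.62% of all genes tested at these sizes were lower and 6.48% and 6.5% higher. Between the cultured lines 49 of the genes were tested, 9 were higher and 10 lower in Colon 26, and the median was 0.12, where 10.6% and 12.3% of all genes were higher and lower. Of the 41 antiviral genes lower at 100 mm3, 10 were lower, 8 higher and 21 not called in culture, and 2 were not tested there. Ifit1, lower in the tumors, was higher in Colon 26 cultures (1.38), as were Cmpk2 (2.15), Rsad2 (1.87) and Mx2 (1.86). Oas2 (-2.69) and Ifi27l2a (-3.5) were lower in cultures too. The GTPases were lower for 23 of 23 genes at 400 mm3 and 19 of 23 at 800 mm3 (medians -2.46 and -1.61), and for 7 of 20 tested in culture, where 2 were higher. No antiviral gene or GTPase passed the test of a change of the model difference between 100 and 400 mm3 or between 100 and 800 mm3, so the smaller medians at 800 mm3 were not shown to differ gene by gene.

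**Figure D3:**
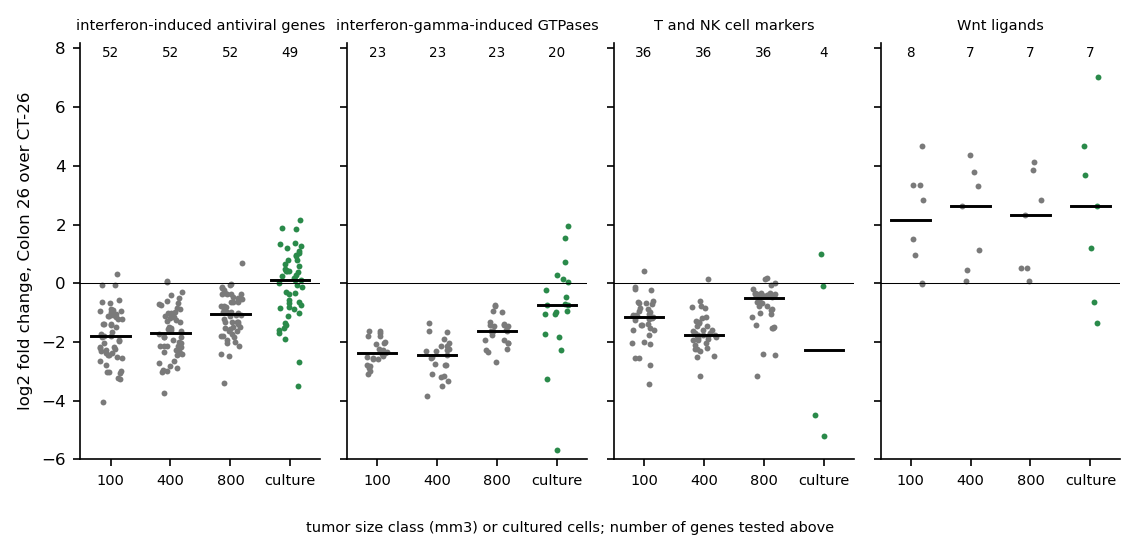
Log2 fold changes of Colon 26 over CT-26 in tumors of 100, 400 and 800 mm3 (gray) and in cultured cells (green) for the members of 4 gene lists that were tested at 100 mm3. Each point is a gene, the bar is the median, and the number above each column is the number of genes tested. The antiviral genes have a median near 0 in culture and below -1 at all 3 tumor sizes, while the Wnt ligands have medians above 2 in all 4 columns.

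Some cytotoxic lymphocyte genes were lower in Colon 26. Of 36 T and NK cell markers, all tested, 13 were lower and 0 higher, 35 lay below 0, and the median was -1.13. The groups did not overlap for 7 of the 36, while they did not overlap for 47.9% of all genes. DESeq2 called 16 lower and 0 higher, and no member had an unadjusted p under 0.05 on the higher side. The called genes were led by those of killing. Gzma, encoding granzyme A (chromosome 13, 113093825 to 113100981, minus strand), was at 55.4, 63.5, 16.4 and 17 CPM in CT-26 and 2.04, 4.59, 4.32 and 3.11 CPM in Colon 26 (log2 fold change -3.43 ± 0.53, adjusted p = 7.1e-04). Gzmb, encoding granzyme B, was at 70.3, 154, 21.2 and 19.3 CPM in CT-26 and 2.79, 16, 11.9 and 7.13 CPM in Colon 26 (log2 fold change -2.8 ± 0.76, adjusted p = 0.014). Both granzyme genes separated the models without overlap, although CT-26 replicates 3 and 4 were much nearer to Colon 26 than replicates 1 and 2. The perforin gene Prf1 was at 36.5, 72.5, 9.4 and 8.6 CPM in CT-26 and 1.72, 9.64, 7.4 and 3.07 CPM in Colon 26, with CT-26 replicates 3 and 4 under the highest Colon 26 library (log2 fold change -2.53 ± 0.79, adjusted p = 0.026). The NK receptor gene Ncr1 (-2.55 ± 0.54), the transcription factors Tbx21 (-2.05 ± 0.63) and Eomes (-2.03 ± 0.55), Nkg7 (-2.01 ± 0.75) and Klrb1c (-1.43 ± 0.34) were among the others. Nkg7 (-1.35 to -1.79) lost its call without CT-26 replicate 2 or Colon 26 replicate 4.

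Several genes that define T cells and their subsets had no call. Cd8a was at 5.46, 23.3, 2.87 and 1.18 CPM in CT-26 and 0.422, 8.67, 4.21 and 1.57 CPM in Colon 26, and its groups overlapped broadly (log2 fold change -1.13 ± 1.0, adjusted p = 0.38). Cd3e was at 2.84, 7.89, 1.18 and 1.08 CPM in CT-26 and 0.551, 3.51, 2.1 and 1.04 CPM in Colon 26 (log2 fold change -0.84 ± 0.74, adjusted p = 0.37). The interferon-gamma gene Ifng was at 1.91, 4.64, 1.22 and 0.627 CPM in CT-26 and 0.0649, 1.33, 1.16 and 0.332 CPM in Colon 26 (log2 fold change -1.52 ± 0.80, adjusted p = 0.15). None of these 3 was called, and in each CT-26 replicate 2 was the highest library. Cd4 (-0.13 ± 0.23, adjusted p = 0.68), Foxp3 (0.40 ± 0.23, adjusted p = 0.19), which marks regulatory T cells, and Ctla4 (-0.19 ± 0.42, adjusted p = 0.73) were not called either. The list's summed CPM was 323, 601, 126 and 119.6 in CT-26 and 36.9, 151, 113 and 64.3 in Colon 26, so the sums of the models overlapped. Without CT-26 replicate 2, 8 members were called, and the range over leaving out each library was 8 to 16. At 400 mm3, 30 of 36 were lower (median -1.75), and at 800 mm3, 10 of 36 (median -0.49). Only 4 of the markers were tested in culture.

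Of 24 checkpoint ligands and receptors tested, 3 were lower and 0 higher in Colon 26 (4 and 0 by DESeq2), with 7 and 3 members passing an unadjusted p of 0.05 on the lower and the higher side. Ido1, the tryptophan-degrading enzyme gene, was at 7.54, 10.7, 2.12 and 0.766 CPM in CT-26 and 0.0324, 0.691, 0.451 and 0.0414 CPM in Colon 26 (log2 fold change -4.04 ± 0.99, adjusted p = 0.0088). The PD-L1 gene Cd274 was at 67.5, 139.7, 43.6 and 19 CPM in CT-26 and 6.58, 33, 36.6 and 14.9 CPM in Colon 26, with overlapping groups (log2 fold change -1.56 ± 0.66, adjusted p = 0.078). Nectin2, a ligand of Tigit, was at 24.8, 22.9, 26.7 and 30.9 CPM in CT-26 and 10.2, 11.3, 12.3 and 10.3 CPM in Colon 26 (log2 fold change -1.25 ± 0.11, adjusted p = 3.0e-05), with no overlap and little spread, and it was lower in cultures too (-2.74). Cd274 (-0.93 to -1.55) lost its call without CT-26 replicate 1 or 2 or Colon 26 replicate 1 or 4.

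Of 30 chemokine genes tested, 8 were lower, 2 higher and 20 not called, with a median of -0.62. At 400 mm3, 9 were lower and 2 higher, and at 800 mm3, 1 was lower and 3 were higher (median 0.02). The interferon-inducible Cxcl10, which draws CXCR3-bearing T cells, was at 78.2, 134, 59.2 and 49.2 CPM in CT-26 and 8.46, 29.8, 28.5 and 17.6 CPM in Colon 26 (log2 fold change -1.92 ± 0.43, adjusted p = 0.0055). Cxcl11 was lower with overlapping groups (-1.44 ± 0.58). Ccl2, which draws monocytes, was at 178, 169, 66 and 92 CPM in CT-26 and 31.9, 45, 47 and 54 CPM in Colon 26 (log2 fold change -1.5 ± 0.32, adjusted p = 0.0039). Neither set of Cxcl10 or Ccl2 values overlapped. Cxcl1 (-2.64 ± 0.44), Cxcl3 (-1.55 ± 0.61), Ccl7 (-1.15 ± 0.29), Ccl17 (-1.87 ± 0.54) and Ccl22 (-1.07 ± 0.31) completed the lower genes. In culture, Cxcl10 (1.67) and Ccl2 (2.58) were higher in Colon 26. Cx3cl1, a membrane-bound chemokine, was higher in Colon 26 tumors at 0.931, 2.59, 3.19 and 2.16 CPM in CT-26 and 71.2, 65.7, 58.5 and 60.1 CPM in Colon 26 (log2 fold change 4.84 ± 0.27, adjusted p = 3.3e-06), and so was Cxcl14 (1.79 ± 0.19). Without CT-26 replicate 1 the number of lower chemokines was 4. Cxcl11 (-1.05 to -1.41) lost its call without CT-26 replicate 1 or 2 or Colon 26 replicate 1 or 4. Cxcl3 (-0.66 to -1.57) lost its call without CT-26 replicate 1 or Colon 26 replicate 2, 3 or 4. Ccl7 (-0.91) lost its call without CT-26 replicate 1. Ccl22 (-0.84 to -0.97) lost its call without CT-26 replicate 1 or 4 or Colon 26 replicate 2.

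The myeloid lists are short, and few of their members were called. Higher in Colon 26 were 5.26% of macrophage, 25% of neutrophil and 20% of dendritic cell markers tested, against 6.17% of all genes. Lower were 0%, 0% and 6.67%, against 7.06% of all genes. Of 19 macrophage markers tested, 1 was higher and 0 lower, with a median of 0.38. On the higher side 8 (against 55.5% of all genes in either direction) had an unadjusted p under 0.05, on the lower side 0, and DESeq2 called 1 higher and 0 lower. The called gene was Arg1, the arginase gene of alternatively activated macrophages, at 172, 98.4, 44.2 and 35.9 CPM in CT-26 and 158, 193, 212 and 214 CPM in Colon 26 (log2 fold change 1.15 ± 0.44, adjusted p = 0.059). Lyz2 (0.68 ± 0.19, adjusted p = 0.016), Csf1r (0.63 ± 0.19, adjusted p = 0.022) and Adgre1 (-0.31 ± 0.30, adjusted p = 0.42) were not called. Of 8 neutrophil markers tested, Padi4 (4.83 ± 0.30) and Cxcr2 (1.34 ± 0.31) were higher, and Padi4 was also higher in Colon 26 cultures (7.36). No neutrophil marker was lower by edgeR or DESeq2 or at an unadjusted p under 0.05, while at 400 mm3, 5 of 7 tested were lower and 1 higher. Of 15 dendritic cell markers, Zbtb46 (1.1 ± 0.09), Siglech (1.01 ± 0.37) and Cd209a (1.15 ± 0.46) were higher and Cadm1 (-2.59 ± 0.34) was lower, and Xcr1, the receptor of cross-presenting dendritic cells, was not called (-1.58 ± 0.79, adjusted p = 0.13). Cadm1 and Zbtb46 differed in the same direction in culture. Only 1 higher dendritic cell call was made without CT-26 replicate 1, 2 or 3 or Colon 26 replicate 3. With limma on log2(FPKM + 1) the number was 0. Arg1 (0.89 to 1.1) lost its call without CT-26 replicate 3 or 4 or Colon 26 replicate 3 or 4. Siglech (0.75 to 0.99) lost its call without CT-26 replicate 1, 2 or 3 or Colon 26 replicate 2 or 3. Cd209a (0.94 to 1.11) lost its call without CT-26 replicate 1, 2 or 3 or Colon 26 replicate 1, 3 or 4.

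Mast cell genes were examined as a list after Tpsab1, Tpsb2, Cma1 and Cpa3 had come up among the largest lower genes that were under 1 CPM in both cultures, so the list's count is a description. Of 13 tested, 11 were lower and 0 higher by edgeR and by DESeq2 (0 higher at an unadjusted p under 0.05). The groups did not overlap for 12 of the 13 (47.9% of all genes), and the median was -3.42. Tpsab1, a mast cell tryptase gene (chromosome 17, 25343245 to 25345562, minus strand), was at 70.1, 102, 41.2 and 28.4 CPM in CT-26 and 1.14, 2.15, 4.02 and 2.9 CPM in Colon 26 (log2 fold change -4.58 ± 0.50, adjusted p = 1.0e-04). Cma1, a chymase gene, was at 31.8, 38.7, 16 and 14.7 CPM in CT-26 and 2.08, 1.74, 2.52 and 1.86 CPM in Colon 26 (log2 fold change -3.63 ± 0.35, adjusted p = 5.2e-05). Cpa3, the mast cell carboxypeptidase gene, was at 24.2, 36.4, 18 and 12.4 CPM in CT-26 and 1.59, 1.38, 3.16 and 2.11 CPM in Colon 26 (log2 fold change -3.48 ± 0.39, adjusted p = 1.1e-04). All 3 separated the models without overlap. The receptor genes Fcer1a (-3.61 ± 0.57) and Ms4a2 (-3.07 ± 0.58) and the chymase gene Mcpt4 (-3.29 ± 0.39) were lower too, whereas Kit, which other cells also express, was not called (-0.74 ± 0.29, adjusted p = 0.058). The list was lower for 10 of 12 tested genes at both 400 mm3 (median -3.46) and 800 mm3 (median -5.06). Tpsab1 and Tpsb2 are close copies.

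Fibroblast and pericyte genes, where called, were mainly higher in Colon 26. Of 15 fibroblast and pericyte markers, all tested, 8 were higher and 1 lower, against 6.17% and 7.06% of all genes, with a median of 1.09. Postn, the matricellular protein periostin, was at 19.9, 22.3, 41.2 and 40.7 CPM in CT-26 and 138, 117, 111 and 125 CPM in Colon 26 (log2 fold change 1.99 ± 0.24, adjusted p = 1.9e-04). Pdgfra, a receptor of fibroblasts, was at 30.4, 44.2, 44.4 and 40.8 CPM in CT-26 and 108, 99.2, 92.9 and 103 CPM in Colon 26 (log2 fold change 1.33 ± 0.12, adjusted p = 3.1e-05). Cspg4, the NG2 proteoglycan of pericytes, was at 1.27, 2.85, 6.17 and 5.46 CPM in CT-26 and 84.5, 77.2, 72 and 85.9 CPM in Colon 26 (log2 fold change 4.33 ± 0.38, adjusted p = 3.0e-05). None of these overlapped. Cspg4 was also higher in Colon 26 cultures (8.12) and Postn lower there (-2.12). Tagln (1.67 ± 0.26), Fbln1 (1.37 ± 0.22), Mfap5 (1.33 ± 0.19), Lum (1.18 ± 0.31) and Acta2 (1.09 ± 0.19) were the other higher members. Dcn, encoding the proteoglycan decorin, was the lower member at 92.3, 204, 198 and 217 CPM in CT-26 and 69.9, 73.3, 95.9 and 71 CPM in Colon 26 (log2 fold change -1.2 ± 0.25, adjusted p = 0.0036), with CT-26 replicate 1 under the highest Colon 26 library, and it was lower in cultures as well (-5.26). The list's summed CPM was 402, 591, 675 and 669 in CT-26 and 883, 758, 757 and 773 in Colon 26. Endothelial markers (1 of 15 higher, Vwf, 2.18 ± 0.45, and 0 lower by edgeR, by DESeq2 or at an unadjusted p under 0.05) and skeletal muscle markers (0 of 15 called by edgeR or DESeq2, 0 with an unadjusted p under 0.05) were examined beside them. The muscle list summed to 4.19, 407, 63.7 and 876 in CT-26 and 323, 2037, 192 and 405 in Colon 26, a wide and overlapping range, and its part in the stromal differences was not tested. Lum (0.97) lost its call without CT-26 replicate 1. Acta2 (0.97) lost its call without CT-26 replicate 3.

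Genes that both cultures hardly expressed gave further stromal names. Among the called genes, 360 of the higher and 299 of the lower genes were under 1 CPM on average in both cultures. The share of such genes among all genes tested was not counted, so these numbers only describe where the names below come from. Lrrc15, a surface protein of activated fibroblasts, was at 6.99, 4.05, 5.15 and 4.94 CPM in CT-26 and 39.8, 32.6, 33.3 and 37.2 CPM in Colon 26 (log2 fold change 2.76 ± 0.16, adjusted p = 3.9e-06). Fndc1 (2.73 ± 0.31), the tenascin gene Tnn (2.67 ± 0.50), Pcsk5 (2.53 ± 0.18), Rcan2 (2.15 ± 0.41), Crispld2 (2.08 ± 0.25) and the heat shock gene Hspa1a (2.0 ± 0.52) completed the 8 largest higher genes of this kind with Postn. On the lower side, Islr, another marker of mesenchymal cells, was at 31.2, 52, 49.4 and 69.9 CPM in CT-26 and 5.12, 4.09, 1.8 and 2.57 CPM in Colon 26 (log2 fold change -3.88 ± 0.35, adjusted p = 3.7e-05), and the apolipoprotein gene Apod was at 28.2, 74.3, 36.4 and 51.9 CPM in CT-26 and 6.06, 3.01, 2.03 and 3.32 CPM in Colon 26 (log2 fold change -3.72 ± 0.40, adjusted p = 9.7e-05). So among the genes hardly expressed in culture, stromal genes stood on both sides. The largest lower gene of this kind was Lrrtm2, a synaptic adhesion gene (-4.64 ± 0.49), whose exons overlap Ctnna1 on the opposite strand.

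**Figure D4:**
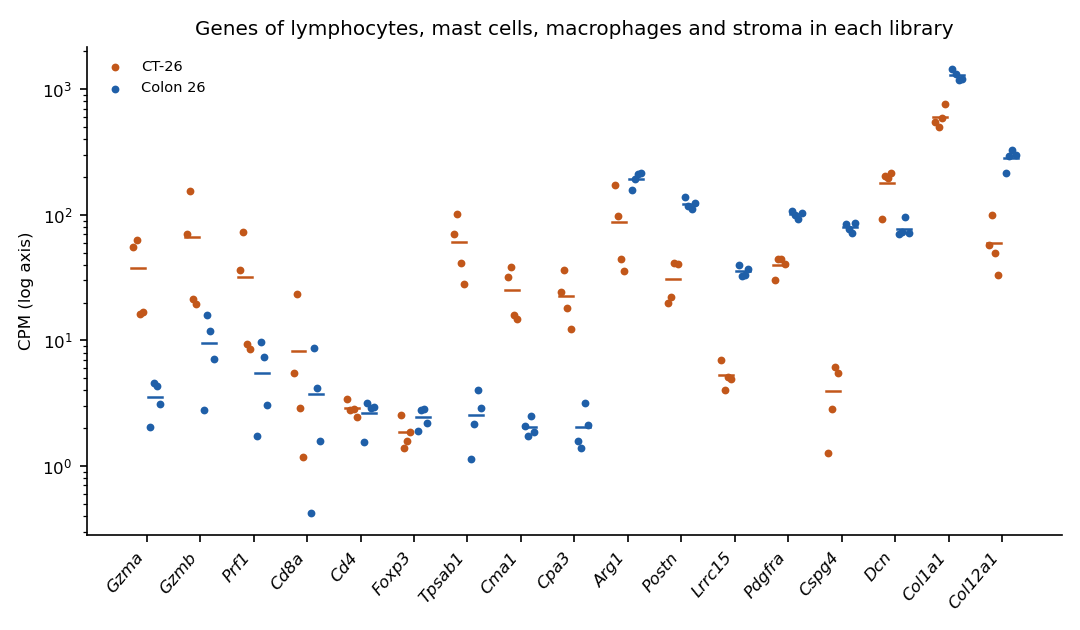
CPM on a log axis for 17 genes of lymphocytes, mast cells, macrophages and stroma in each 100 mm3 library, with 4 points per model and a bar at each mean. The granzyme and mast cell genes are higher in every CT-26 tumor, Cd4 and Foxp3 overlap, and Postn, Lrrc15, Pdgfra, Cspg4 and the 2 collagen genes are higher in every Colon 26 tumor.

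Collagen genes were higher for 12 and lower for 2 of 32 tested (median 0.57). Col1a1, a chain of type I collagen, was at 549, 503, 590.1 and 759.9 CPM in CT-26 and 1445, 1311, 1194 and 1201 CPM in Colon 26 (log2 fold change 1.1 ± 0.13, adjusted p = 1.5e-04). Col12a1 was at 57.8, 99.2, 49.4 and 33 CPM in CT-26 and 217, 296, 327 and 299.8 CPM in Colon 26 (log2 fold change 2.25 ± 0.31, adjusted p = 3.5e-04). Neither pair of groups overlapped, and Col1a1 but not Col12a1 was also called higher in cultures (2.39 and 0.18). Col5a2 (1.52 ± 0.10), Col7a1 (1.91 ± 0.16), Col13a1 (2.1 ± 0.45) and Col14a1 (1.52 ± 0.32) were among the others. Col10a1, the hypertrophic cartilage collagen, was lower at 4.23, 4.51, 26.3 and 38 CPM in CT-26 and 3.86, 0.856, 0.751 and 2.15 CPM in Colon 26 (log2 fold change -3.26 ± 0.85, adjusted p = 0.012), its CT-26 values falling into a low pair and a high pair of tumors. Col18a1, a basement membrane chain, was lower as well (-1.47 ± 0.27). The number of higher collagens was 9 to 13 when each library was left out. Of the 12 higher collagens, 9 were higher at 400 mm3 and 3 not called. At 800 mm3, 6 were higher, 5 not called and 1 lower. In culture 2 were higher, 5 not called, 1 lower and 4 not tested. No collagen passed the test of a change of the model difference between tumor sizes.

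Of 28 matrix proteases and inhibitors tested, 7 were higher and 3 lower. Timp3, an inhibitor of metalloproteinases bound to the matrix, was at 50.3, 53.6, 55.6 and 37.6 CPM in CT-26 and 594, 457, 394 and 405 CPM in Colon 26 (log2 fold change 3.23 ± 0.17, adjusted p = 2.5e-06). The aggrecanase gene Adamts5 (2.54 ± 0.24), Mmp2 (1.22 ± 0.16), Mmp23 (1.43 ± 0.17), Adamts2 (1.42 ± 0.13), Adamts12 (1.56 ± 0.42) and Serpinb2 (1.62 ± 0.45) were higher. Mmp13, the rodent interstitial collagenase, was lower at 25.8, 16.2, 19.6 and 8.98 CPM in CT-26 and 5.06, 6.99, 8.23 and 6.55 CPM in Colon 26 (log2 fold change -1.39 ± 0.30, adjusted p = 0.0041), with Mmp3 (-1.83 ± 0.42) and Mmp28 (-2.29 ± 0.21). Timp3 and Adamts5 were also higher, and Mmp13 lower, in Colon 26 cultures, while Mmp3 was higher there (1.54).

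**Figure D5:**
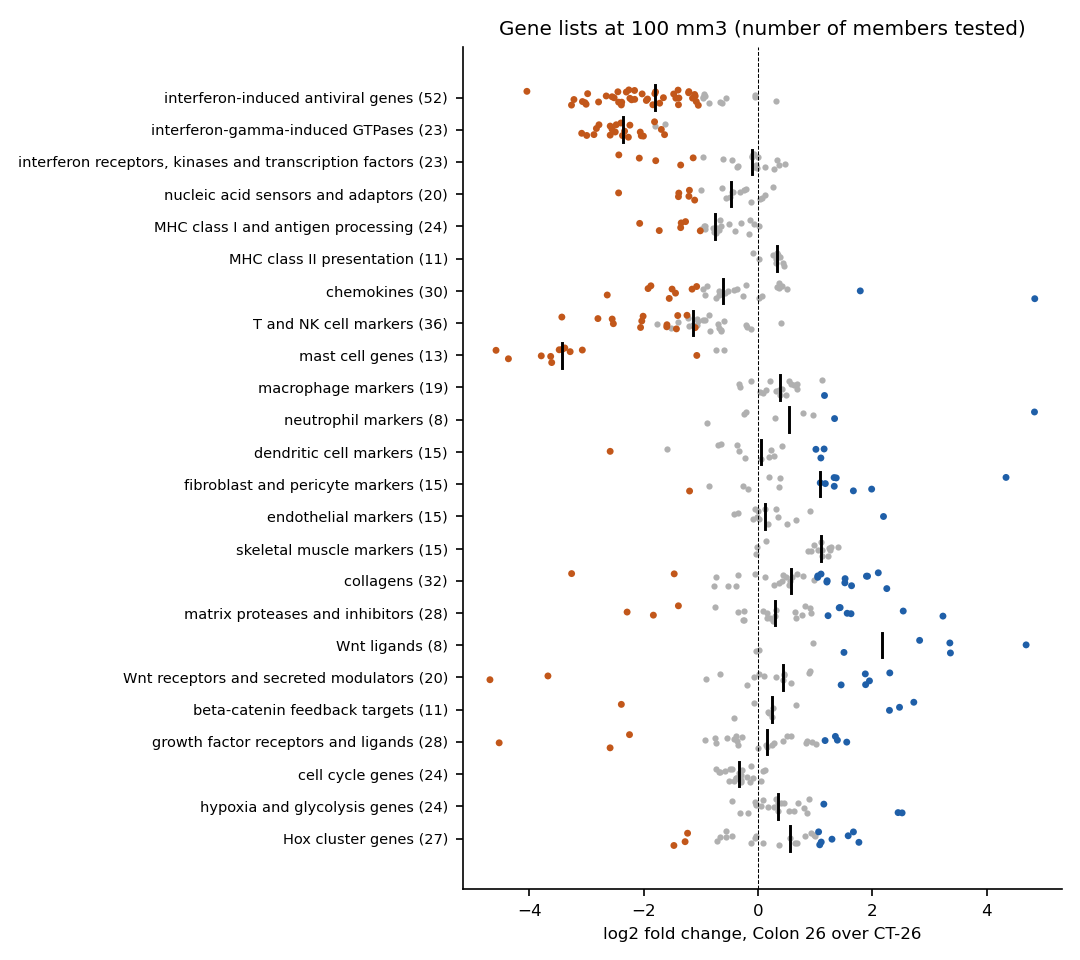
Log2 fold changes of Colon 26 over CT-26 at 100 mm3 for 24 gene lists, with the number of members tested in parentheses. Each point is a gene, colored where it was called (blue higher, orange lower in Colon 26), the black bar is the list's median and the dashed line the median of all genes. The antiviral, GTPase, T and NK cell and mast cell lists have medians below -1, and the Wnt ligand, fibroblast and muscle lists medians above 1, the muscle list with no called gene.

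Wnt ligands, secreted proteins that signal through Fzd receptors, were higher for 5 and lower for 0 of 8 tested by edgeR and by DESeq2, with 0 lower at an unadjusted p under 0.05. The number higher was 2 when every library had to hold 10 counts, a filter that fewer of the ligands pass, and 3 with limma on log2(FPKM + 1). Wnt10b was at 11.3, 11, 9.32 and 8.88 CPM in CT-26 and 105, 101, 97.3 and 109.9 CPM in Colon 26 (log2 fold change 3.35 ± 0.09, adjusted p = 1.6e-07). Wnt5a was at 1.61, 2.55, 1.81 and 1.08 CPM in CT-26 and 15.8, 18.5, 20.6 and 18 CPM in Colon 26 (log2 fold change 3.36 ± 0.23, adjusted p = 8.7e-06), and Wnt6 at 0.339, 0.531, 0.157 and 0.418 CPM in CT-26 and 13.8, 7.27, 7.82 and 9.24 CPM in Colon 26 (log2 fold change 4.69 ± 0.35, adjusted p = 1.2e-05). For all 3 the groups were far apart. Wnt5b (2.82 ± 0.57) and Wnt11 (1.5 ± 0.34) were higher at low levels, and Wnt10a was not called (-0.04 ± 0.11, adjusted p = 0.8). The receptor genes went both ways. Fzd3 was lower at 15.7, 11.1, 18.1 and 15.7 CPM in CT-26 and 0.649, 0.967, 0.15 and 0.497 CPM in Colon 26 (log2 fold change -4.69 ± 0.39, adjusted p = 2.3e-05), and Fzd6 was lower too (-3.67 ± 0.39). The co-receptor genes Ror1 (1.88 ± 0.60) and Ror2 (1.45 ± 0.25) and the secreted antagonists Sfrp1 (1.87 ± 0.49), Sfrp2 (1.95 ± 0.38) and Sfrp4 (2.3 ± 0.89) were higher. Among 11 tested feedback targets of beta-catenin, Axin2 (2.47 ± 0.22), Nkd2 (2.72 ± 0.33) and Apcdd1 (2.3 ± 0.21) were higher and Lef1 was lower (-2.39 ± 0.15). The other 7 were not called, and the list's median was 0.25. The number of higher targets was 4 by DESeq2, 1 with limma on log2(FPKM + 1) and 1 when every library had to hold 10 counts. Of the Wnt receptors and modulators, 1 was higher with limma on log2(FPKM + 1). Prkd3 (2.6 ± 0.10), Nfatc4 (1.65 ± 0.12), Itga3 (1.17 ± 0.12) and Sema3f (1.17 ± 0.29) were higher, and Prkd1 (-2.62 ± 0.19), Pappa2 (-2.5 ± 0.34) and Sema3e (-2.05 ± 0.56) lower, among genes that the study discusses. Sfrp4 (1.34 to 2.29) lost its call without CT-26 replicate 1 or 3 or Colon 26 replicate 1 or 4.

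Ligands of the BMP and TGF-beta family were higher where they were called. Bmp4 was at 0.296, 0.0995, 0.708 and 0.557 CPM in CT-26 and 27, 26.2, 22.3 and 27.4 CPM in Colon 26, with no overlap (5.96 ± 0.36). Gdf15, a stress-induced member of the family, was at 0.339, 0.166, 0.354 and 0.0696 CPM in CT-26 and 2.27, 3.29, 2.86 and 3.52 CPM in Colon 26 (log2 fold change 3.7 ± 0.39, adjusted p = 8.0e-05), and Tgfb2 was at 0.508, 0.498, 0.668 and 0.905 CPM in CT-26 and 7.2, 6.6, 6.24 and 6.09 CPM in Colon 26 (log2 fold change 3.33 ± 0.21, adjusted p = 5.0e-06). Bmp7 was also higher (1.05 ± 0.32), and the activin antagonist Fst was lower (-1.13 ± 0.33). In all, 5 were higher and 1 lower of 29 tested. Of 28 growth factor receptors and ligands tested, 4 were higher, 3 lower and 21 not called (median 0.15). The 3 lower genes encode ligands of the EGF receptor. Tgfa was at 10.9, 9.12, 9.44 and 10.3 CPM in CT-26 and 0.616, 0.304, 0.338 and 0.456 CPM in Colon 26 (log2 fold change -4.53 ± 0.22, adjusted p = 1.4e-06), and Areg (-2.59 ± 0.41) and Btc (-2.25 ± 0.31) were lower too. The other tested genes of the EGF ligand family on the list, Egf (0.25 ± 0.29, adjusted p = 0.51), Ereg (-0.42 ± 0.11, adjusted p = 0.01), Hbegf (-0.76 ± 0.17, adjusted p = 0.0062) and Nrg1 (0.14 ± 0.10, adjusted p = 0.27), were not called. The fibroblast growth factor genes Fgf1 (1.55 ± 0.37) and Fgf2 (1.39 ± 0.16) and the receptor genes Fgfr1 (1.35 ± 0.13) and Erbb2 (1.17 ± 0.06) were higher. Bmp7 (0.86 to 0.99) lost its call without Colon 26 replicate 1 or 4. Fst (-0.87 to -0.94) lost its call without CT-26 replicate 2 or Colon 26 replicate 1.

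Among 15 cytokine genes tested, 3 were lower and 1 higher, and the number lower was 5 without CT-26 replicate 3 and 6 without Colon 26 replicate 3. Il7, the T cell survival factor, was at 10.4, 10.4, 12.5 and 8.6 CPM in CT-26 and 0.162, 0.497, 0.263 and 0.29 CPM in Colon 26 (log2 fold change -5.06 ± 0.29, adjusted p = 3.3e-06), with all Colon 26 libraries under 1 CPM. Tnfsf10, encoding the death ligand TRAIL (-1.89 ± 0.51), and Il11 (-1.78 ± 0.23) were lower, and the alarmin Il33 was higher (1.5 ± 0.23). Of 18 complement genes tested, 3 were lower and 2 higher, and without CT-26 replicate 3 or 4 the number lower was 5. C1s1 was lower at 226, 493, 185 and 132 CPM in CT-26 and 27.4, 54.5, 41.8 and 29.4 CPM in Colon 26 (log2 fold change -2.76 ± 0.42, adjusted p = 7.0e-04), with C1ra (-2.09 ± 0.32) and C4b (-1.17 ± 0.46). C2 (1.22 ± 0.36) was among the higher genes. The 3 lower complement genes were not called in culture (-0.43, 0.06 and -0.98). C4b (-0.47 to -1.22) lost its call without CT-26 replicate 2 or Colon 26 replicate 1, 3 or 4.

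Few epithelial genes were expressed well enough to be tested, and those called went both ways. Krt18 was at 15.2, 8.09, 11 and 15.1 CPM in CT-26 and 0, 0.0276, 0.0751 and 0 CPM in Colon 26. With 3 counts in all of Colon 26 it was 479-fold lower there (95% counting interval 164 to 2326, adjusted p = 3.1e-06). Krt20, a keratin of mature colonocytes, was at 168, 130.4, 133 and 135 CPM in CT-26 and 21.2, 15.9, 14.5 and 11.9 CPM in Colon 26 (log2 fold change -3.15 ± 0.17, adjusted p = 3.0e-06), and Ceacam1 was lower as well (-2.01 ± 0.17). The intestinal transcription factor Cdx2 was higher at 0.0847, 0.0332, 0.354 and 0.209 CPM in CT-26 and 4.86, 3.95, 4.58 and 4.56 CPM in Colon 26 (log2 fold change 4.7 ± 0.44, adjusted p = 4.3e-05), with Krt19 (1.77 ± 0.34) and Cdh1 (1.09 ± 0.29) higher at low levels. Of 27 Hox genes tested, 7 were higher and 3 lower. The number higher was 4 without Colon 26 replicate 1, 3 when every library had to hold 10 counts and 0 with limma on log2(FPKM + 1). The lower ones were Hoxa9 (-1.23 ± 0.14), Hoxa10 (-1.47 ± 0.14) and Hoxc6 (-1.28 ± 0.14), and Hoxd10 (1.76 ± 0.64) and Hoxb8 (1.67 ± 0.28) had the largest higher changes. Cdh1 (0.93) lost its call without CT-26 replicate 1. Hoxd10 (1.49 to 1.67) lost its call without CT-26 replicate 4 or Colon 26 replicate 1 or 3.

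Hypoxia and glycolysis genes were higher for 3 of 24 and lower for 0, with 1 lower at an unadjusted p under 0.05 and 0 by DESeq2. Car9, a carbonic anhydrase induced by low oxygen, was at 37.5, 19.1, 18.1 and 8.08 CPM in CT-26 and 89.1, 131, 115 and 115 CPM in Colon 26 (log2 fold change 2.45 ± 0.38, adjusted p = 8.0e-04), and Egln3 (2.52 ± 0.29) and the lactate exporter gene Slc16a3 (1.15 ± 0.30) were the others. Without CT-26 replicate 1, the smallest CT-26 tumor, 6 were called. Cell cycle genes were not called by edgeR or DESeq2 for any of 24, and 18 had an unadjusted p under 0.05 on the lower side and 0 on the higher side (all genes, both directions, 55.5%), with a median of -0.33 and Ccnb1 at -0.74 ± 0.06, adjusted p = 2.1e-05. In culture the same list was higher for 14 of 24 (median 1.21). Of 18 genes of the p53 pathway, Pmaip1 (3.77 ± 0.19), Gdf15 and Ccng1 (1.13 ± 0.08) were higher. Of 8 mismatch repair genes, Mlh3 was lower at 19.5, 21, 24.6 and 21.7 CPM in CT-26 and 5.22, 4.64, 4.1 and 5.93 CPM in Colon 26 (log2 fold change -2.13 ± 0.13, adjusted p = 5.0e-06), and it was lower in cultures too (-2.97). Slc16a3 (0.94) lost its call without CT-26 replicate 4.

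Most differences at 100 mm3 were found again in larger tumors. Of the 950 higher genes, 691 were higher at 400 mm3, 690 at 800 mm3 and 590 (62.1%) at both, and of the 1088 lower genes 841, 798 and 703 (64.6%) were lower. The called shares of all genes were 14.3% at 400 mm3 and 14.1% at 800 mm3. Of the higher genes 2 were lower at 400 mm3 and 3 at 800 mm3, and of the lower genes 1 was higher at 400 mm3 and 0 at 800 mm3. In culture, where 22.9% of 14334 genes were called, 501 of the higher genes were higher, 22 lower, 177 not called and 250 not tested. Of the lower genes, 519 were lower, 43 higher, 352 not called and 174 not tested. In all 4 comparisons 424 genes were higher and 406 lower. The change of the model difference was tested as an interaction. Between 100 and 400 mm3, 0 of 16077 genes passed (edgeR, 1254 or 7.8% with an unadjusted p under 0.05), and between 100 and 800 mm3, 5 of 16238 (0.0308%) passed, or 13 (0.0801%) by adjusted p with no minimum change, while 2031 (12.5%) had an unadjusted p under 0.05. The 5 were the muscle genes Hspb7 and Trim72 and the predicted genes Gm39822, Gm32618 and Gm9042. The muscle genes followed the muscle list, of which 13 of 13 tested members were lower in Colon 26 at 800 mm3, and the part of muscle content in their change was not tested.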

How the data were processed

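Poly-A RNA of tumors and cultured cells was sequenced as paired-end reads. The authors counted reads per gene with Array Studio on Ensembl release 78 and deposited estimated counts, of which 22.6% of the non-zero values were not whole, and FPKM, which are scaled to gene length and library size. The aligner, the genome build and the handling of strand were not given in the sources used here. The submitters' processing notes name DESeq2 1.24.0. No per-library column was left without a sample (0 unused).

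Estimated counts were rounded and tested with edgeR 4.0.16 in R 4.3.3 (filterByExpr, TMM factors, quasi-likelihood test, 8 libraries, Benjamini-Hochberg adjustment over all 15406 genes). Calls used the study's thresholds, an adjusted p no larger than 0.1 with a change of 1 or more on the log2 scale. Because values were estimated and not raw counts as first assumed, rounding was added. Counting intervals cover counting error only. Groups came from the labels. The same model was fitted at 400 mm3, at 800 mm3 and in culture, and interaction terms in fits of 2 sizes. Alternatives were DESeq2 1.42.0, limma 3.58.1 on log2(FPKM + 1) and log2(FPKM + 0.1), other scalings, filters, samples, thresholds, tumor volume as a covariate, and leaving out each library. Scripts were tested on simulated data.

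Named were the 12 largest changes per direction among called, non-overlapping genes with a mean of at least 100 counts, the 8 largest per direction under 1 CPM in both cultures, up to 6 called members of each list per direction, genes the study discusses, and list members that a sentence needed. Members and lists were chosen with earlier results of these data known, and the mast cell list after its values were seen. Gene coordinates came from GENCODE release M21 (GRCm38) by identifier, which matched 97.7% of 53431 genes, and promoters from RefSeq (GRCm38.p6). Lists of B cell (0 higher and 1 lower of 3 tested), adipocyte (1 and 0 of 8), skin epithelium (0 and 0 of 3), mesenchymal state (1 and 0 of 14) and prostaglandin genes (1 and 0 of 16) were also counted by edgeR. Some members of the lists are not reported here by name.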

Additional observations from a re-analysis of the deposited data

Results flagged for a closer look

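Libraries that stood apart from the other 3 of their group, by a gap that was above Dixon's 95% critical value as a share of the group's range, were sought in 76 list sums and 80 gene values, and 5 and 6 were found. Chance gives about 1 in 20 such groups. Colon 26 replicate 1 had the highest sums of fibroblast and pericyte markers (883 CPM against 757 to 773) and of endothelial markers (390.1 CPM against 303 to 309), and the highest values of Lingo1 (14.0 CPM against 9.95 to 10.2) and Dnah1 (204 CPM against 178 to 182). Colon 26 replicate 2 had the highest sum of skeletal muscle markers (2037 CPM against 192 to 405). Colon 26 replicate 3 had the highest Tpsb2 (3.98 CPM against 1.82 to 1.93). Among CT-26 tumors, replicate 1 was highest for the sum of colon and epithelial genes (362 CPM against 331 to 335) and for Tnn (5.67 CPM against 1.32 to 2.06) and lowest for Syt1 (8.38 CPM against 13.2 to 14.0). CT-26 replicate 2 was highest for Ptprc (189 CPM against 71.8 to 85.1), and replicate 3 for Ndst4 (17.7 CPM against 14.3 to 14.8).

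The difference between the models changed from 100 to 800 mm3 for 5 genes in edgeR's interaction test. The change, 100 minus 800 mm3, was 4.77 ± 0.80 on the log2 scale for Trim72 (adjusted p = 0.088), 4.31 ± 0.50 for Hspb7 (adjusted p = 0.0045) and 2.49 ± 0.36 for Gm39822 (adjusted p = 0.023). It was -1.06 ± 0.20 for Gm32618 (adjusted p = 0.088) and -2.83 ± 0.53 for Gm9042 (adjusted p = 0.088). At 100 mm3 the mean of Hspb7 was 5.40 CPM (CT-26) and 5.58 CPM (Colon 26), and at 800 mm3 it was 8.50 and 0.440 CPM. Gm9042 had too few counts to be tested at either size alone.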

How the results depend on the processing

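Of 254 called genes among the 704 named or listed genes tested, 0 reversed under an alternative that gave them a value, and 206 kept their call whichever library was left out. The requirement of 10 counts in every library removed 63 of them from the test, and of the 191 with a value under every alternative 131 kept their call throughout. Among settings that tested all 254, 69 calls were lost with limma on log2(FPKM + 1) and 32 without CT-26 replicate 2. The 2038 called genes were 1356 with at least 10 counts required in every library, 861 with limma on log2(FPKM + 1) and 8710 with no minimum fold change. The 950 higher genes were 624, 383 and 4069 under these 3 settings, and the 1088 lower genes 478 and 4641 under the last 2. DESeq2 called 2570 genes, 2005 of them shared (98.4% of edgeR's and 78% of DESeq2's calls). Leaving out each library gave 2045 to 2269 called genes, 948 to 1084 higher and 1054 to 1192 lower, 33 to 45 antiviral genes, 18 to 23 GTPases, 8 to 16 T and NK cell markers, 7 to 8 fibroblast markers and 9 to 13 collagens. With limma on log2(FPKM + 1), 6 T and NK cell markers, 7 mast cell genes, 5 chemokines and 2 nucleic acid sensors were lower, and 6 collagens and 4 matrix proteases or inhibitors higher. With 10 counts required in every library, 6 mast cell genes were lower, and 3 Wnt receptors or modulators and 3 BMP and TGF-beta genes higher. The 5 genes whose model difference changed from 100 to 800 mm3 were 8 with all 24 tumors in one fit, and 0 genes changed from 100 to 400 mm3 in each fit run. Apart from the filter on counts, where fewer genes are tested, and the thresholds, the cause of these shifts was not tested. Genes under about 1 CPM rest on few counts, and 4 tumors per model limit the precision. No paired analysis was possible because the labels give no replicate numbers that groups share.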

Other observations

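The model difference was uneven over chromosomes. The median log2 fold change of the genes tested was -0.42 on chromosome 13 (589 genes, 78 lower and 28 higher), -0.30 on chromosome 1 (965 genes, 141 lower and 50 higher), -0.30 on chromosome 15 (596 genes, 49 lower and 29 higher) and -0.21 on chromosome 6 (807 genes, 76 lower and 52 higher). On chromosome 9 it was 0.19 (874 genes, 40 lower and 79 higher). The other chromosomes had medians from -0.13 (chromosome 5) to 0.12 (chromosome 12). Shares called lower and higher were 13.2% and 4.75% on chromosome 13 and 14.6% and 5.18% on chromosome 1. They were 8.22% and 4.87% on chromosome 15, 9.42% and 6.44% on chromosome 6, and 4.58% and 9.04% on chromosome 9. Over all genes they were 7.06% and 6.17%, so chromosomes 15 and 6 were near the background. In culture the medians were -0.54 on chromosome 13, -0.32 on chromosome 1, -0.21 on chromosome 15, -0.20 on chromosome 6 and 0.26 on chromosome 9. At 400 and 800 mm3 chromosome 13 had medians of -0.40 and -0.39. Genes of a chromosome are not independent replicates, so these values are given without a test. DNA copy number was not analysed here.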
